A study of Mus musculus with 6 samples.

Results

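The genes described here encode the subunits of the receptors for glutamate, GABA and glycine. They were chosen by symbol, with earlier results of these data known. Of the 23420 genes in the deposited count table, 52 matched. They comprised 4 AMPA, 5 kainate, 2 delta and 7 NMDA receptor subunits and 8 metabotropic glutamate receptors. The others were 19 GABA-A, 2 GABA-B and 5 glycine receptor subunits. RNA was sequenced from mouse neocortex at embryonic day 18.5. One group carried a Tshz3 mutation and the other was wild type. The sources used here do not give the allele or its zygosity. Each group had 3 libraries, and each library came from a pool of cortices of 3 to 4 embryos drawn from several litters.

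Glutamate opens AMPA, kainate and NMDA receptor channels, each built from several subunits, and acts more slowly through metabotropic receptors coupled to G proteins. GABA and glycine open pentameric chloride channels, and GABA also acts through GABA-B receptors, obligate pairs of both GABA-B subunits. Which subunits a neuron makes sets the kinetics, pharmacology and location of its receptors, and in cortex several of these choices shift around birth.

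Total counts ran from 18569383 to 24147810 per library, and receptor subunit genes took 0.334% to 0.364% of them. Tshz3, the targeted gene, was at 89.8 to 99.2 CPM in mutant-labelled and 78.7 to 89.3 CPM in wild-type libraries, where CPM is edgeR's count scaled to library size. It was thus not lower in the mutant-labelled group, so its count did not check the genotype labels. The libraries are called mutant-labelled, and a library labelled mutant with the number 1 is written mutant 1. All 10 markers of cortical projection neurons were detected, with a summed level of 2339 to 2582 CPM in mutant-labelled and 2152 to 2454 CPM in wild-type libraries. Libraries with the number 1 stood apart in both genotypes: the 6 choroid plexus markers summed to 827 CPM in mutant 1 and 844 CPM in wild type 1, against 127 to 234 CPM in the other 4 libraries. The part of these markers in the results was not tested. The unpaired test called no subunit gene with all libraries in. Without both libraries numbered 1 it called 2 of 14547 genes and again no subunit gene. So few calls cannot show whether these libraries matter. The pools also differed in sex: Xist was at 0.853 CPM in wild type 1 and 404 to 1332 CPM elsewhere, and the Y-linked genes Ddx3y, Eif2s3y, Kdm5d and Uty had no read in mutant 3. In tissue RNA, fewer cells of a type and less RNA per cell cannot be told apart.

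Of the 52 genes, 41 had enough reads to be tested. Between the genotypes, 0 of these 41 were called by the quasi-likelihood test of edgeR at an adjusted p of 0.05, against 0.0752% of all 14618 genes tested (0.0479% higher and 0.0274% lower). At an unadjusted p under 0.05 there were 8 of 41 or 19.5% (background 7.09%). Of these, 3 were higher (background 4.1%) and 5 lower (background 3%). DESeq2 called 1 (background 0.698%). Libraries that share a number departed from their group means in the same direction, so the test was repeated with the number as a pair. Paired, 6 of 41 or 14.6% were called, against 3.46% of all genes tested. Among them Glra2 rose and Gabra3, Grik1, Grin1 and Grm3 fell. In the upward direction this was 2 of 41 against 1.97%, and downward 4 of 41 against 1.49%. Left without pair 3, the paired test called none of the 6, beside 62 of all 14719 genes tested. Without pair 1 it called 4 of the 6, Gabra3, Glra2 and Grik1 included, beside 295 of all 14547 genes. Without pair 2 it called all 6 with Grid1, Grin3a and Grm8, beside 1874 of all 14628 genes. The direction of the 6 was the same in every one of these fits. The absolute log2 fold change had a median of 0.107 over the 41 and of 0.0872 over all genes tested. The signed medians were both −0.01, with 19 subunit genes on the positive and 22 on the negative side.

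**Figure D1:**
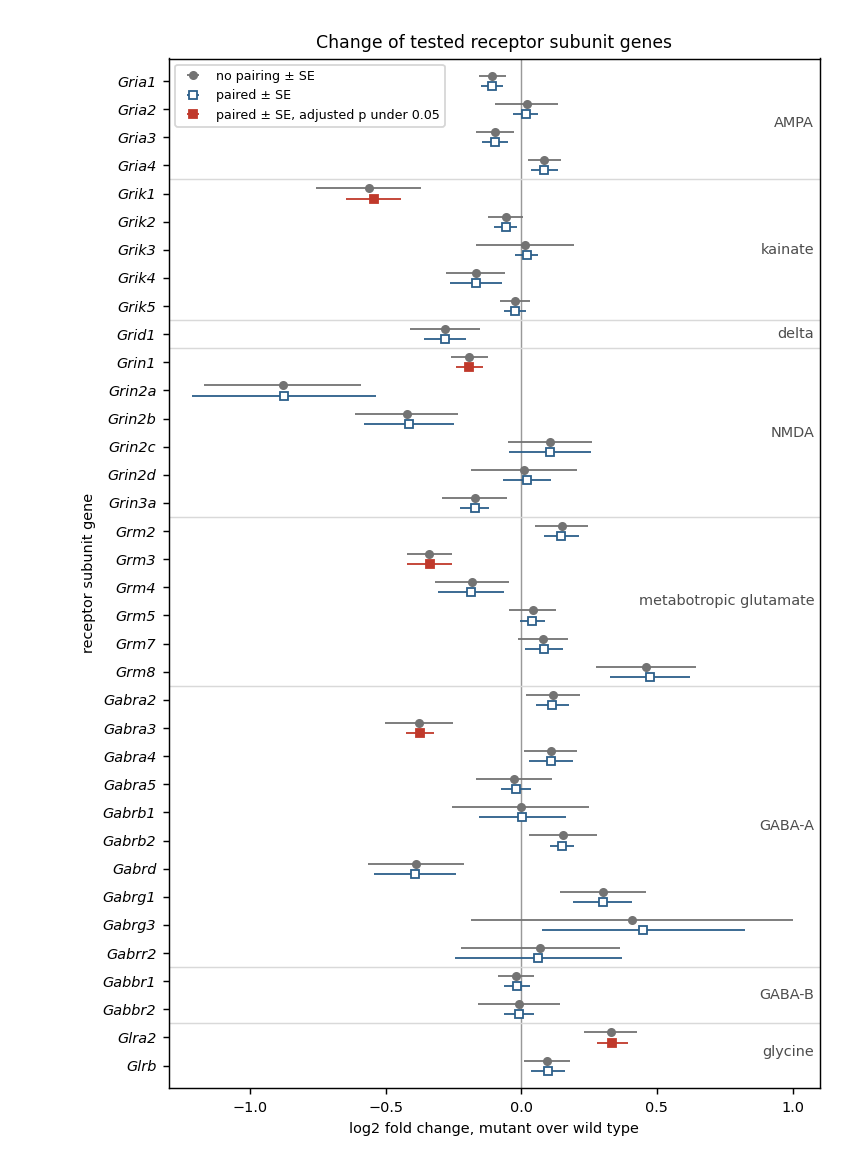
Log2 fold change (mutant over wild type, horizontal axis) of the tested receptor subunit genes reported here, grouped by receptor class, with bars of 1 SE, from the fit without pairing (grey circles) and with pairing (blue open or red filled squares). The 5 filled red squares passed an adjusted p of 0.05 in the paired fit, 1 to the right of 0 and 4 to the left.

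Sequence upstream of the start site was read for called genes, to show the promoters of members that moved. RefSeq entries on GRCm38.p6 existed for 36 of the 52 genes and for 4 of the 6 called ones. The most upstream start of each was used, and the 150 bases before it follow, 5′ to 3′ on the gene's strand, and capitals mark a GGGCGG or TATAAA match on either strand.
Glra2, chrX:165327394-165327543, minus strand: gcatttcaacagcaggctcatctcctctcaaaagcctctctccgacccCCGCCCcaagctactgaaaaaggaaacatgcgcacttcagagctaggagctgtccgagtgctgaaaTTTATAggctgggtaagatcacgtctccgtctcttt
Gabra3, chrX:72656920-72657069, minus strand: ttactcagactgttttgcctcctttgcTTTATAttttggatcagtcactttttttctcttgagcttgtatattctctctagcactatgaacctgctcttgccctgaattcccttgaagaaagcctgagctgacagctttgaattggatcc
Grin1, chr2:25319188-25319337, minus strand: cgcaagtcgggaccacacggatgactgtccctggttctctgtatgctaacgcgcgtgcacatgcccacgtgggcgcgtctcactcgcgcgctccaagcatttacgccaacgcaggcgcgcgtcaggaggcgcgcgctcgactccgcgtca
Grm3, chr5:9725353-9725502, minus strand: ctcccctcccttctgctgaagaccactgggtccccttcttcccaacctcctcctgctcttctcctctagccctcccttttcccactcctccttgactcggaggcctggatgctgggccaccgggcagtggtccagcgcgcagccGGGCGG
All these windows lie outside annotated exons. In the GENCODE M21 annotation of GRCm38, Glra2, Gabra3, Grik1, Grin1 and Grm3 lie on the minus strand. Gabra3 spans chrX:72432681-72656848 and Glra2 chrX:165129017-165327393. Grik1 spans chr16:87895900-88290265, Grin1 chr2:25291181-25319187 and Grm3 chr5:9485541-9725170. In the 250 bases upstream, GGGCGG, the core of the GC box bound by Sp factors, occurred in Glra2 and Grm3. It occurred in 32.7% of all 32851 promoter windows of that length and in 20 of the 36 subunit genes with an entry. TATAAA occurred in Glra2 and in Gabra3, beside 12.4% of all windows and 4 of the 36. Neither was found upstream of Grin1, which has 27 CG dinucleotides there against a median of 6 over all windows, while Gabra3 has 0. The motif GCGNGGGCG, bound by Egr factors, was in none of the 4 called genes, beside 4.7% of all windows and 3 of the 36.

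Among AMPA receptor genes, which encode the channels of fast excitatory transmission, neither fit called any of 4. Gria2, whose subunit makes the channel nearly impermeable to calcium once its RNA is edited, was at 606, 752 and 681 CPM in wild-type libraries 1 to 3 and at 622, 797 and 647 CPM in mutant-labelled libraries 1 to 3. The groups overlapped, and the log2 fold change was 0.02 (SE 0.11). Scaled to exon length, Gria2 (43.7 ± 4.67 CPM per kb, SD, n = 3) and Gria1 (43.2 ± 1.12) were level in wild type and stood above Gria4 (14.7 ± 0.822) and Gria3 (8.22 ± 0.614). Gria2 has long annotated untranslated regions: scaled to coding length instead, it made up 61.1% of the class in wild type, against 39.7% by exon length, and Gria1 23.3% against 39.4%. Gria1 was at 253, 267 and 262 CPM in wild type and 239, 238 and 249 CPM in mutant-labelled libraries. Every mutant-labelled library lay below every wild-type library, but its adjusted p was 0.75 unpaired and 0.181 paired (log2 fold change −0.11, SE 0.05). Groups failed to overlap in 9 of the 41 tested subunit genes, beside 13.5% of all genes tested. The mutant-labelled libraries were higher in 3 of them (background 7.42%) and lower in 6 (background 6.09%).

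**Figure D2:**
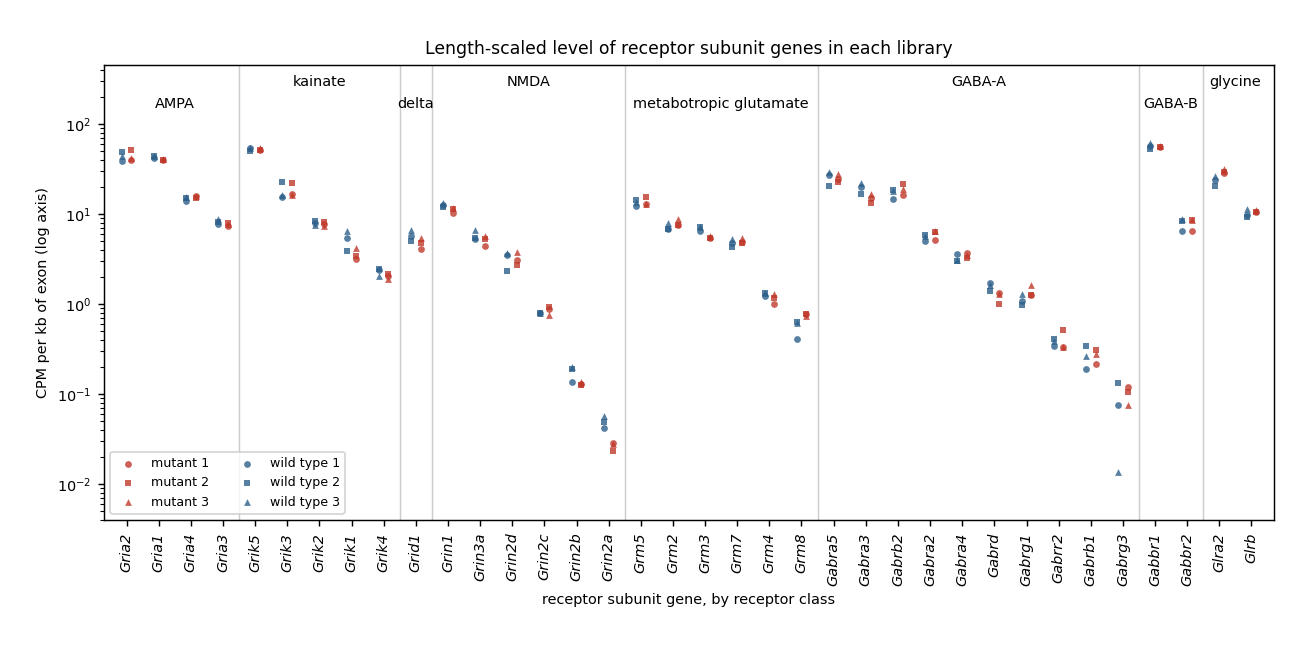
Level of the tested receptor subunit genes reported here in CPM per kb of annotated exon (log axis), by class and from highest to lowest in wild type. Each gene has 6 points, wild type in blue and mutant in red. The wild-type mean runs from 56.6 CPM per kb for Gabbr1 to 0.0495 for Grin2a.

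Of 5 kainate receptor genes, Grik1 fell in the paired fit. Grik1 encodes GluK1, a channel-forming kainate subunit found in many cortical interneurons. It was at 36.6, 26.2 and 43.9 CPM in wild-type libraries 1 to 3 and at 21.3, 22.9 and 27.9 CPM in mutant-labelled libraries 1 to 3. Wild type 2 was the lowest of its group and lay below mutant 3, so the groups overlapped. The paired log2 fold change was −0.54 (SE 0.10, adjusted p = 0.0177), and −0.56 (SE 0.19, adjusted p = 0.574) without pairing. Within pairs 1, 2 and 3 the difference was −0.76, −0.19 and −0.64. Markers of cortical interneurons, 12 of 12 detected, summed to 695 to 795 CPM in mutant-labelled and 723 to 870 CPM in wild-type libraries. When paired, 1 of the 12, Npy, fell (log2 fold change −0.41, background 1.49% of all genes tested) and 11 did not pass. The part of interneuron numbers in the Grik1 result was not tested.

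Grik5, the high-affinity GluK5 subunit that needs a partner such as GluK2, was the most abundant kainate gene, at 280.6, 260.4 and 280.2 CPM in wild type and 265, 264 and 278 CPM in mutant-labelled libraries. Its groups overlapped (log2 fold change −0.02, SE 0.06). By exon length it stood at 53.0 ± 2.23 CPM per kb in wild type, above Grik3 (18.1 ± 3.96), Grik2 (8.01 ± 0.411), Grik1 (5.29 ± 1.32) and Grik4 (2.28 ± 0.209). Each step down that order was larger than the SDs of the genes on either side of it.

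Grid1 encodes a delta receptor, a synapse organiser that binds cerebellins. Grid1 was at 34.3, 30.1 and 39.1 CPM in wild type and at 24.6, 28.1 and 32.6 CPM in mutant-labelled libraries. Mutant 3 lay above wild type 2, and the log2 fold change of −0.28 had adjusted p = 0.745 unpaired and 0.0636 paired (paired SE 0.08). With 1 library left out, unpaired, it ran from −0.38 to −0.18 (without wild type 3), and was −0.19 without mutant 1. Paired with a pair left out, it ran from −0.37 to −0.18 (without pair 1).

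In the NMDA receptor class, Grin1 fell in the paired fit. It encodes GluN1, which every NMDA receptor contains. Grin1 was at 122.8, 115.5 and 127.2 CPM in wild-type libraries 1 to 3 and at 98.4, 109.7 and 111.8 CPM in mutant-labelled libraries 1 to 3. All mutant-labelled libraries were below all wild-type libraries, by the least in pair 2, and the within-pair differences were −0.32, −0.07 and −0.18. The log2 fold change was −0.19, with adjusted p = 0.0471 paired (SE 0.05) and 0.588 unpaired (SE 0.07). Without pair 1 its paired adjusted p also missed the threshold. An antisense transcript, Grin1os, overlaps 13.5% of its annotated exon length, and since the strand setting of the counting is not stated, reads of both could not be told apart.

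The glutamate-binding GluN2 subunits, which join GluN1 and set the channel's kinetics, all lay below Grin1 in CPM per kb. GluN2B is known as the main GluN2 subunit of embryonic forebrain, yet Grin2b was counted at only 3.41, 4.73 and 5.01 CPM in wild-type libraries 1 to 3, from 72, 98 and 92 reads, and at 3.25, 3.17 and 3.37 CPM in mutant-labelled libraries, from 69, 76 and 67 reads. Why so few reads were counted for Grin2b was not tested. Its annotated exons span 24842 bases, of which other genes' exons overlap 0.576% at most for any 1 gene. All mutant-labelled libraries lay below wild type, with a log2 fold change of −0.42 (SE 0.19) and adjusted p = 0.727 unpaired and 0.198 paired.

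Grin2a, which encodes the GluN2A subunit that replaces much of GluN2B after birth, was lower still. It was at 0.759, 0.869 and 1.03 CPM in wild type and at 0.518, 0.417 and 0.504 CPM in mutant-labelled libraries, from 84 reads in all 6. The groups did not overlap, and the log2 fold change was −0.88 (SE 0.29, unadjusted p = 0.0166, adjusted p = 0.522, paired 0.186). By exon length Grin1 (12.6 ± 0.606 CPM per kb in wild type) was followed by Grin3a (5.76 ± 0.731), which encodes a glycine-binding subunit abundant in young neurons, Grin2d (3.17 ± 0.743) and Grin2c (0.795 ± 0.00455). Grin2d took 69.2% to 80.5% of the length-scaled GluN2 transcripts over the 6 libraries and Grin2b 2.9% to 5.66%. Scaled to coding length these shares were 62.5% to 77.0% and 9.24% to 17.0%. By that length Grin2b came close to Grin2c (13.3% and 14.5% in wild type on average). All these shares rest on the low Grin2b count described above. An antisense transcript, Gm45441, also overlaps 9.66% of the annotated exon length of Grin2d, and reads of both could not be told apart. The log2 fold change of Grin3a was −0.17 (SE 0.12, adjusted p = 0.842, paired 0.0972), and Grin2c and Grin2d had 0.11 and 0.01.

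**Figure D3:**
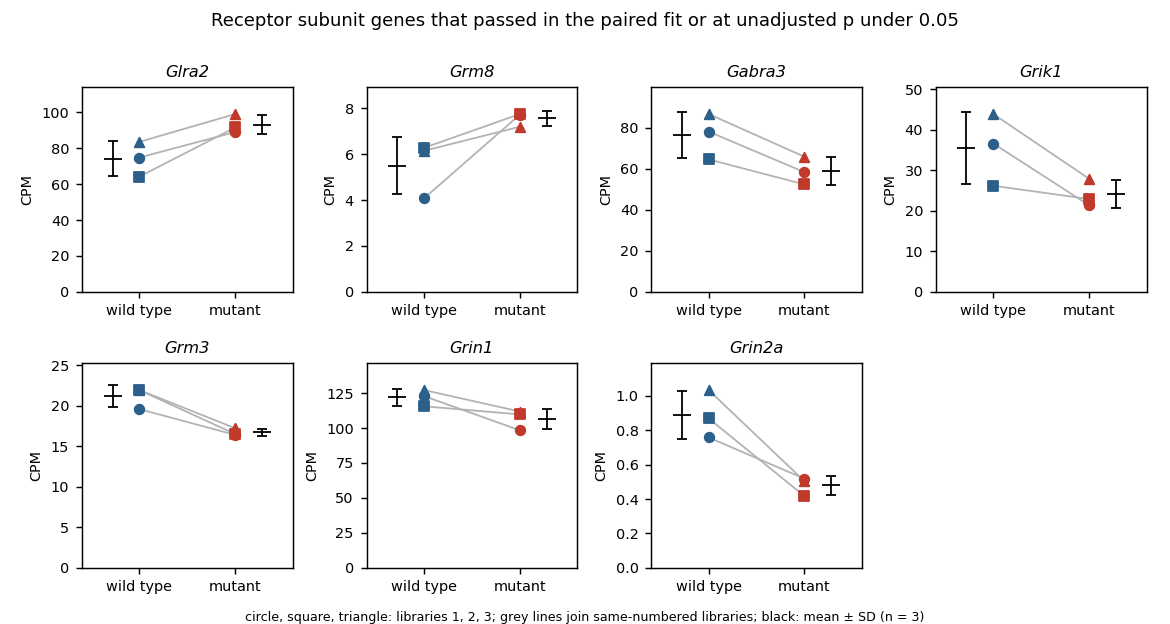
CPM of 7 receptor subunit genes in each library (linear axes from 0), wild type in blue and mutant in red, with circles, squares and triangles for libraries 1, 2 and 3, grey lines joining libraries that share a number and black bars for mean ± SD (n = 3). In all 7 panels the 3 lines run the same way, up for Glra2 and Grm8 and down for the other 5. The genes were chosen for passing in the paired fit or for an unadjusted p under 0.05. Lines that run the same way follow in part from that choice.

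Metabotropic glutamate receptors gave 1 paired call in 7 tested. Grm3, which encodes mGluR3, an inhibitory receptor of neurons and astrocytes, was at 19.6, 21.9 and 21.9 CPM in wild-type libraries 1 to 3 and at 16.4, 16.5 and 17.2 CPM in mutant-labelled libraries 1 to 3. The groups were separate, and the within-pair differences were −0.25, −0.40 and −0.34. The log2 fold change was −0.34 (SE 0.08), with adjusted p = 0.0398 paired and 0.391 unpaired. Without pair 1 the paired call was lost. Radial glia and astrocyte markers, 10 of 10 detected, summed to 1370 to 1495 CPM in mutant-labelled and 1303 to 1500 CPM in wild-type libraries, and none of them passed in either fit.

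Grm8, an inhibitory receptor of presynaptic terminals, was at 4.08, 6.28 and 6.15 CPM in wild type and 7.73, 7.76 and 7.2 CPM in mutant-labelled libraries. The groups did not overlap, and wild type 1 was the lowest library. Its log2 fold change of 0.46 (SE 0.18, unadjusted p = 0.0378) had adjusted p = 0.67 unpaired and 0.101 paired. With 1 library left out, unpaired, it ran from 0.28 (without wild type 1) to 0.57. Paired with a pair left out, it ran from 0.27 (without pair 1) to 0.60. Grm5, which couples to calcium release and is prominent in developing cortex, was the most abundant member, at 125.2, 144.7 and 139.8 CPM in wild type and 131, 157 and 133 CPM in mutant-labelled libraries. The Grm5 groups overlapped, with a log2 fold change of 0.04 (SE 0.09). By exon length Grm5 (13.3 ± 0.993 CPM per kb in wild type) led Grm2 (7.22 ± 0.678) and Grm3 (6.94 ± 0.445), which did not differ beyond their spread, then Grm7 (4.74 ± 0.459), Grm4 (1.3 ± 0.0521) and Grm8 (0.556 ± 0.125). By coding length Grm2 (13.5 CPM per kb) stood apart from Grm3 (8.02), and Grm7 (9.68) stood above Grm3. The log2 fold changes of Grm2, Grm4 and Grm7 lay between −0.18 and 0.15 and passed in neither fit.

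GABA-A receptors are usually assembled from alpha, beta and gamma subunits, and the alpha subunit decides much of their kinetics and drug binding.

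Gabra3, whose subunit is abundant in immature cortex and declines after birth, fell in the paired fit. It was at 78.2, 64.6 and 86.8 CPM in wild-type libraries 1 to 3 and at 58.4, 52.4 and 65.9 CPM in mutant-labelled libraries 1 to 3. Mutant 3 lay just above wild type 2, so the groups overlapped, while within pairs the differences were close to each other at −0.42, −0.30 and −0.39. Gabra3 fell by 0.37 on the log2 scale when paired (SE 0.05, adjusted p = 0.000825), and the unpaired value was −0.38 (SE 0.12, adjusted p = 0.536). Gabra3 is X-linked, and the pools differed in sex as given above; the part of sex in its result was not tested.

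Set against the other alpha genes by exon length, Gabra3 made up 34.4%, 33.8% and 35.05% of alpha transcripts in wild-type libraries 1 to 3 and 28.7%, 27.0% and 28.5% in mutant-labelled libraries 1 to 3. The Gabra3 share did not overlap between the groups, nor did it by coding length (28.7% to 31.3% in wild type and 22.5% to 24.8% in mutant-labelled libraries). Gabra5, which encodes the subunit of extrasynaptic receptors, held the largest share, 44.6% ± 2.44 in wild type and 46.5% ± 1.06 in mutant-labelled libraries (SD, n = 3). By coding length Gabra5 held 34.3% in wild type. Gabra2 held 9.82% in wild type by exon and 19.8% by coding length, and Gabra4 held 5.73% and 7.2%, and their log2 fold changes were 0.12 and 0.11, with neither past the threshold.

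By exon length, Gabra5 (25.4 ± 4.45 CPM per kb) stood above Gabra3 (19.5 ± 2.85) in wild type, with Gabrb2 (17.0 ± 2.03), which encodes a beta subunit, within 1 SD of Gabra3. By coding length Gabrb2 stood above both instead, at 70.4 CPM per kb against 54.3 for Gabra5 and 47.9 for Gabra3. The log2 fold change of Gabrb2 was 0.15 (SE 0.13), with a paired adjusted p of 0.0835. Gabrd, the delta subunit of extrasynaptic receptors, was low at 4.88, 4.06 and 4.63 CPM in wild type and 3.82, 2.88 and 3.68 CPM in mutant-labelled libraries, which did not overlap. Its log2 fold change of −0.39 (SE 0.18) had adjusted p = 0.73 unpaired and 0.187 paired. Gabrg1, Gabrb1, Gabrg3 and Gabrr2 lay between 0.799 and 8.82 CPM in wild type on average and passed in neither fit.

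The GABA-B genes did not pass. Gabbr1, which encodes the GABA-binding subunit, stood at 56.6 ± 4.26 CPM per kb in wild type, with 442.8, 404.5 and 470.3 CPM in wild type and 425, 433 and 443 CPM in mutant-labelled libraries. Gabbr2, its obligate signalling partner, stood at 7.87 ± 1.23 CPM per kb, so the class was 87.8% Gabbr1. The log2 fold changes were −0.02 (SE 0.07) for Gabbr1 and −0.01 (SE 0.15) for Gabbr2.

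Among glycine receptor genes, only Glra2 and Glrb passed the filter on low counts. Glra2 encodes the alpha2 subunit of embryonic glycine receptors, which can form channels without the beta subunit. It was at 74.8, 64.2 and 83.6 CPM in wild-type libraries 1 to 3 and at 89.0, 91.6 and 99.1 CPM in mutant-labelled libraries 1 to 3. All mutant-labelled libraries were above all wild-type libraries, by the most in pair 2 (0.51) and by 0.25 and 0.24 in pairs 1 and 3. Glra2 rose 1.26-fold when paired (log2 fold change 0.34, SE 0.06, adjusted p = 0.00397), while the unpaired adjusted p was 0.472 (log2 fold change 0.33, SE 0.10). Glra2 is X-linked too, and the part of sex in its result was not tested. Glrb, the beta subunit that binds the synaptic scaffold gephyrin, had a log2 fold change of 0.09 (SE 0.09). By exon length Glra2 was 70.1% of the class in wild type.

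The 11 subunit genes that were not tested had at most 44 reads over all 6 libraries. Gabrp and Gabrr3 had none, which allows a level of up to 0.163 CPM in the shallowest library, covering counting error only. Glra1, Glra3, Glra4, Gabra6, Gabre, Gabrq, Gabrr1, Grm6 and Grin3b had between 1 and 44 reads, and no library exceeded 0.616 CPM for any of them. Grin3b shares 32.1% of its exon length with Tmem259 on the other strand, so its reads are uncertain.

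Receptor function also rests on auxiliary proteins, anchors, transporters and enzymes. Of 73 tested genes of this kind, none passed in edgeR's unpaired test, and 7 had an unadjusted p under 0.05 (background 7.09%). DESeq2, also unpaired, called 1 higher, Slc1a2, and 2 lower, Gsg1l and Kctd12 (background 0.698% in either direction). In edgeR's paired test, 2 rose (background 1.97%) and 3 fell (background 1.49%). None of these 5 passed in the paired test without pair 3, and Slitrk3 did not pass without pair 1 either. Among 18 AMPA and kainate receptor auxiliary genes, 2 fell and 16 did not pass. Gsg1l, whose protein slows the recovery of AMPA receptors from desensitisation, fell from 21.0, 20.1 and 28.7 CPM in wild type to 15.4, 12.3 and 16.3 CPM in mutant-labelled libraries (paired log2 fold change −0.66, SE 0.09, adjusted p = 0.000985). Neto2, an auxiliary subunit of kainate receptors, fell by 0.20 (SE 0.04, adjusted p = 0.0177).

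Among 17 anchors and auxiliary genes of GABA and glycine receptors, 1 rose and 1 fell. Kctd12, whose protein binds GABA-B receptors and speeds their desensitisation, fell from 194, 212 and 228 CPM in wild type to 157, 174 and 158 CPM in mutant-labelled libraries (paired log2 fold change −0.37, SE 0.05, adjusted p = 0.000794). Slitrk3, an adhesion protein of inhibitory synapses, rose by 0.33 (SE 0.07, adjusted p = 0.0159). Slc1a2, the glutamate transporter GLT-1, was the 1 of 11 glutamate synthesis and transport genes that passed, with a paired log2 fold change of 0.26 (SE 0.04, adjusted p = 0.0035). None of 15 glutamate receptor anchors and partners and none of 12 GABA and glycine synthesis and transport genes passed in either edgeR fit. All list medians lay between −0.04 and 0.02, beside −0.01 over all genes tested.

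Marker genes of other cells and regions moved in the paired fit as well, in which 1.97% of all genes tested rose and 1.49% fell. Of 10 projection neuron markers 3 rose, Bcl11b and Fezf2 among them, and 7 did not pass. Another marker of that list lay lower in every mutant-labelled library than in every wild-type library. Its log2 fold change of −0.13 passed in neither fit. The median log2 fold change over the list was 0.06. Markers of the striatum summed to 152 to 175 CPM in mutant-labelled and 159 to 205 CPM in wild-type libraries, and 1 of 8, Penk, fell (paired log2 fold change −0.55). Those of the thalamus summed to 209 to 218 and 205 to 216 CPM. The 6 hippocampal markers summed to 208 to 213 CPM in mutant-labelled and 227 to 239 CPM in wild-type libraries, which did not overlap, and 1 of them, Spock1, fell when paired (log2 fold change −0.24). The part of these cells and regions in the subunit results was not tested.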

How the data were processed

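The deposited table gives raw read counts by gene symbol, not normalized. The library kit (TruSeq Stranded RNA) keeps strand, per the labels' protocols. Build mm10 and the tools HTSeq 0.5.3p9, Bowtie2 2.1.0, TopHat2 2.0.9 and CASAVA 1.8.2 are named in the submitters' processing notes. How they were set, which annotation was counted and whether strand was used is not stated there. All 6 sample columns were used (0 unused).

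All genes were fitted together with edgeR 4.0.16 in R 4.3.3 (quasi-likelihood test, robust dispersion, TMM scaling, default expression filter, two-sided), with Benjamini-Hochberg adjustment over 14618 genes. DESeq2 1.42.0 was an alternative. SEs come from the F statistic. Levels per kb use GENCODE M21 exon lengths on GRCm38, the same assembly as mm10, which may differ from the lengths the authors counted over. Motifs were searched on both strands.

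The deviations of same-numbered libraries from their group means correlated at 0.61, 0.51 and 0.47 over genes, above the bound of 0.1, and other combinations at −0.48 to −0.07. The pairing therefore comes from the data; the labels do not say what a number shares. Deviations sum to 0 within a group, so these values are not independent. Libraries of 1 genotype varied beyond counting error (chi-square per degree of freedom 7.13 to 23.1). Each library came from a pool, so unpaired p-values measure the spread between pools of a group. Paired p-values measure the spread of the differences within pairs.

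The member genes and lists were chosen with earlier results of these data known. Values in every library are given for members that passed in either fit or had an unadjusted p under 0.05, and for the highest of each class; Gria1, Grin2b, Grid1 and Gabrd were also given in full after their values were seen. Of the lists, genes past either fit are named. Some genes enter the fits and the counts but are not reported here by name.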

Additional observations from a re-analysis of the deposited data

How the results depend on the processing

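Paired by replicate number, the called subunit genes numbered 2 higher and 4 lower, against 0 and 0 unpaired; paired without replicate 1, 2 and 2; without replicate 2, 3 and 6; and without replicate 3, 0 and 0. DESeq2 called 1 higher. Over all genes the unpaired counts were 7 higher and 4 lower, paired 288 and 218, by DESeq2 59 and 43, without a filter on low counts 11 and 9, and between 1 and 21 higher and 2 and 14 lower with any 1 library left out, the top of both from leaving out wild type 2. The paired counts over all genes were 141 and 154 without replicate 1, 1119 and 755 without replicate 2 and 35 and 27 without replicate 3. An alternative chosen after seeing the data, unpaired and without replicate 1 of both groups, called 1 and 1. Receptor partner, synthesis and transport genes had 0 and 0 calls unpaired, 2 higher and 3 lower paired, 1 and 2 by DESeq2, 1 and 3 paired without replicate 1 and 4 and 6 paired without replicate 2. With a pair left out, the paired fit has 1 residual degree of freedom. Tshz3 passed only paired without replicate 2 (log2 fold change 0.17).

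The alternatives were run for members that passed in a fit or had an unadjusted p under 0.05, the most abundant of each class, named partner genes and Tshz3. Signs turned in the members below, all near 0, and none of those values passed. With 1 library left out, unpaired, the log2 fold change ran from −0.074 to 0.032 for Gabbr1, from −0.099 to 0.098 for Gria2 (−0.058 without wild type 1) and from −0.044 to 0.088 for Grm5 (−0.019 without wild type 1). Paired, Gabbr1 was 0.0060 without replicate 1 and 0.021 without replicate 3, Grik5 was 0.0059 without replicate 1, and Gria2 was −0.019 without replicate 2. Unpaired without replicate 1 of both groups, Gabbr1 was 0.0020 and Grik5 0.0054. With coding length in place of exon length, also chosen after seeing the data, the wild-type share of its class was 61.1% for Gria2, 44.4% for Grik5, 59.3% for Grin1, 48.1% for Grm5 and 64.5% for Glra2. The cause of these changes with the settings was not tested, apart from the lengths themselves.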

Other observations

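Some subunit genes differed between library numbers while hardly differing between genotypes. Grik3, which encodes the low-affinity kainate subunit GluK3, was at 197 CPM in mutant 2 and 203 CPM in wild type 2 but at 140 to 149 CPM in the other 4 libraries. Its log2 fold change was 0.01 with an SE of 0.18 unpaired and 0.02 with an SE of 0.04 paired. Gria2 was likewise highest in both libraries numbered 2, at 797 and 752 CPM against 606 to 681 CPM elsewhere. Gabra5 was lowest in both, at 66.8 and 60.6 CPM against 71.8 to 86.01 CPM. Gabbr2 was lowest in both libraries numbered 1, at 42.9 and 43.3 CPM against 55.7 to 58.8 CPM elsewhere. These genes were chosen after their values were seen.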
